A study of Mus musculus with 24 samples.

Results

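The genes examined were 10 genes of the milk fat droplet and of lipid uptake, Cidea, Plin2, Plin3, Xdh, Btn1a1, Mfge8, Lpl, Cd36, Fabp3 and Vldlr, followed across mammary epithelial cells in which the noncoding RNA mPINC was lowered or raised. They were taken by name, and a probe counted as theirs when it was not a control probe and the RefSeq accession printed for it belonged to 1 of the 10 genes. All 10 genes were found, with 13 of the 55681 probes of the array, among 20145 genes that could be named. Lpl, Fabp3 and Vldlr had 2 probes each, and the probe with the highest mean signal stands for the gene unless the other is named.

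In a lactating alveolar cell, triglyceride gathers in cytoplasmic droplets that are coated with perilipins, grow by fusion, move to the apical surface and leave the cell wrapped in plasma membrane as milk fat globules. Plin2 and Plin3 encode perilipins of the droplet coat, and Cidea encodes a droplet protein that promotes droplet enlargement and milk lipid secretion. Xdh (xanthine oxidoreductase) and Btn1a1 (butyrophilin) are proteins of the globule membrane needed for its release, and Mfge8 encodes a secreted membrane-binding glycoprotein of the globule. Lpl (lipoprotein lipase) frees fatty acids from circulating lipoproteins, Vldlr binds those lipoproteins, Cd36 carries long-chain fatty acids across the membrane, and Fabp3 binds them in the cytosol.

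The cells were HC11, a mouse mammary epithelial line that came through the Comma-D line from the gland of a Balb/c mouse in mid-pregnancy, so every group shares 1 line. In 6 groups the cells received 10 nM siRNA, which was a negative control (siNEG), siPINC1.0/1.6 against the forms mPINC1.0 and mPINC1.6, or siPINC against all splice forms of mPINC. The study names prolactin, hydrocortisone and insulin as the lactogenic hormones. Its media already held insulin, so the hormones added were prolactin and hydrocortisone. Each siRNA was used without that addition (-LH, n = 2 arrays a group) and with it (+LH, n = 3 arrays a group). The growth medium also held epidermal growth factor and a serum other than that of the hormone medium. Which medium the -LH cells were in is not stated, and its part in the hormone changes was not tested. The other 3 groups, all +LH with n = 3, carried the lentivirus LeGO-GFP for green fluorescent protein, LeGO-1.0/1.6 for both of those forms, or LeGO-DCR for a deletion mutant that lacks the terminal exons. Cells were transduced, expanded, aliquoted and frozen before the experiments, and whether the 3 arrays of a lentivirus group shared 1 transduction is not stated. An effect of the construct and a difference between transduced stocks therefore cannot be told apart. The replicates are described as biological, and how long the hormones were given before the arrays is not given in the sources used here.

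RNA of each culture was hybridised to a 1-colour Agilent array. Signals are given as log2 of the processed intensity after quantile normalization of the 24 arrays, and a difference between groups is a log2 fold change. Between 24021 and 35798 probes per array were well above background, and 1 array of LeGO-1.0/1.6 (replicate 1) stood apart with the highest number. The probe for mPINC read 7.41 and 7.48 in siNEG -LH cells and between 6.16 and 6.39 in the -LH cells of both knockdowns. It read between 4.15 and 5.25 in all +LH siRNA groups, where its differences from siNEG were 0.19 with siPINC1.0/1.6 (limma adjusted p = 0.713) and -0.50 with siPINC (limma adjusted p = 0.428), so it does not check the labels of the +LH knockdown arrays. It read between 13.34 and 13.50 in LeGO-1.0/1.6 cells and at the LeGO-GFP level in LeGO-DCR cells, whose construct it does not check. All 6 epithelial markers (Epcam, Cdh1, Krt8, Krt18, Krt5 and Krt14) were well above background on all 24 arrays. So were Fabp4, 1 of 7 adipocyte markers, the endothelial markers Pecam1, Kdr and Gpihbp1 (3 of 5) and the macrophage markers Csf1r and Itgam (2 of 4). Of the rest, the macrophage markers Adgre1 and Ptprc were so on 19 and 7 arrays and the endothelial markers Cdh5 and Tek on 1 and 0. Among the adipocyte markers it was 5 for Lep, 2 each for Plin1 and Cidec, 1 each for Cfd and Retn, and 0 for Adipoq.

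Promoter sequence was held for 6 of the 10 genes in a RefSeq table of build GRCm38.p6, and 4 are shown because their genes were well above background on every array and rose with hormones in the control cells. The lines give the 250 bases before the transcription start, 5′ to 3′ on the strand of the gene, for the later of the 2 starts of Vldlr. Capitals mark a CCAAT box (CCAAT or its complement ATTGG) and a GC box (GGGCGG or its complement CCGCCC).
Plin2, chr4:86670060-86670309, minus strand: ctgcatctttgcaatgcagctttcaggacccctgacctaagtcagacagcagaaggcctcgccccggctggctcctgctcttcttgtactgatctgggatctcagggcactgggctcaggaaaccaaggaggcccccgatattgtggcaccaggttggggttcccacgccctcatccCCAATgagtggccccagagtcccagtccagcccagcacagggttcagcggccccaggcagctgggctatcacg
Plin3, chr17:56290512-56290761, minus strand: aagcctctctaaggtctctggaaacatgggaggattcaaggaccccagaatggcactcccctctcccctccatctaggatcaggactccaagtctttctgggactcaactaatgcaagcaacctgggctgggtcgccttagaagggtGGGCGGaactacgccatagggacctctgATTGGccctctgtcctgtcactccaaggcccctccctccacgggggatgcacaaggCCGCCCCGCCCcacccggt
Mfge8, chr7:79149061-79149310, minus strand: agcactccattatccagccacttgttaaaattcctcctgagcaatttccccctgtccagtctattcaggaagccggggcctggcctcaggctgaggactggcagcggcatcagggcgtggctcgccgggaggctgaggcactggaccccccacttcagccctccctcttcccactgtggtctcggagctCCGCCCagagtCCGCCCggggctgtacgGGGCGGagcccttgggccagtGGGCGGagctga
Vldlr, chr19:27216770-27217019, plus strand: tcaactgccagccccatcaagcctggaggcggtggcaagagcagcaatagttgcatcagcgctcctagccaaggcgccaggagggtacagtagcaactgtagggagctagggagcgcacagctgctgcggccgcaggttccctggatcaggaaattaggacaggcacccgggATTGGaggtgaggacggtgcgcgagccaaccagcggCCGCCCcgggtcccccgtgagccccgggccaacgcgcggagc
The Plin2, Plin3 and Vldlr windows each held 1 CCAAT box, which began 73, 75 and 78 bases before the start, and the Mfge8 window held none. Mfge8 carried 4 GC boxes, Plin3 carried 3, of which 2 overlap by 1 base, and Vldlr carried 1, while Plin2 had none. Of 32851 promoter windows of this length in the table, 33.8% held a CCAAT box and 32.7% a GC box. The STAT motif TTCNNNGAA (7.02% of windows), the E-box CACGTG (6.02%) and the PPAR response element (0.0335%) were searched on both strands and matched in none of the 7 windows of the 6 genes. The hormone receptor motif AGAACA (16.1%) matched in 1, the earlier Vldlr start.

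**Figure D1:**
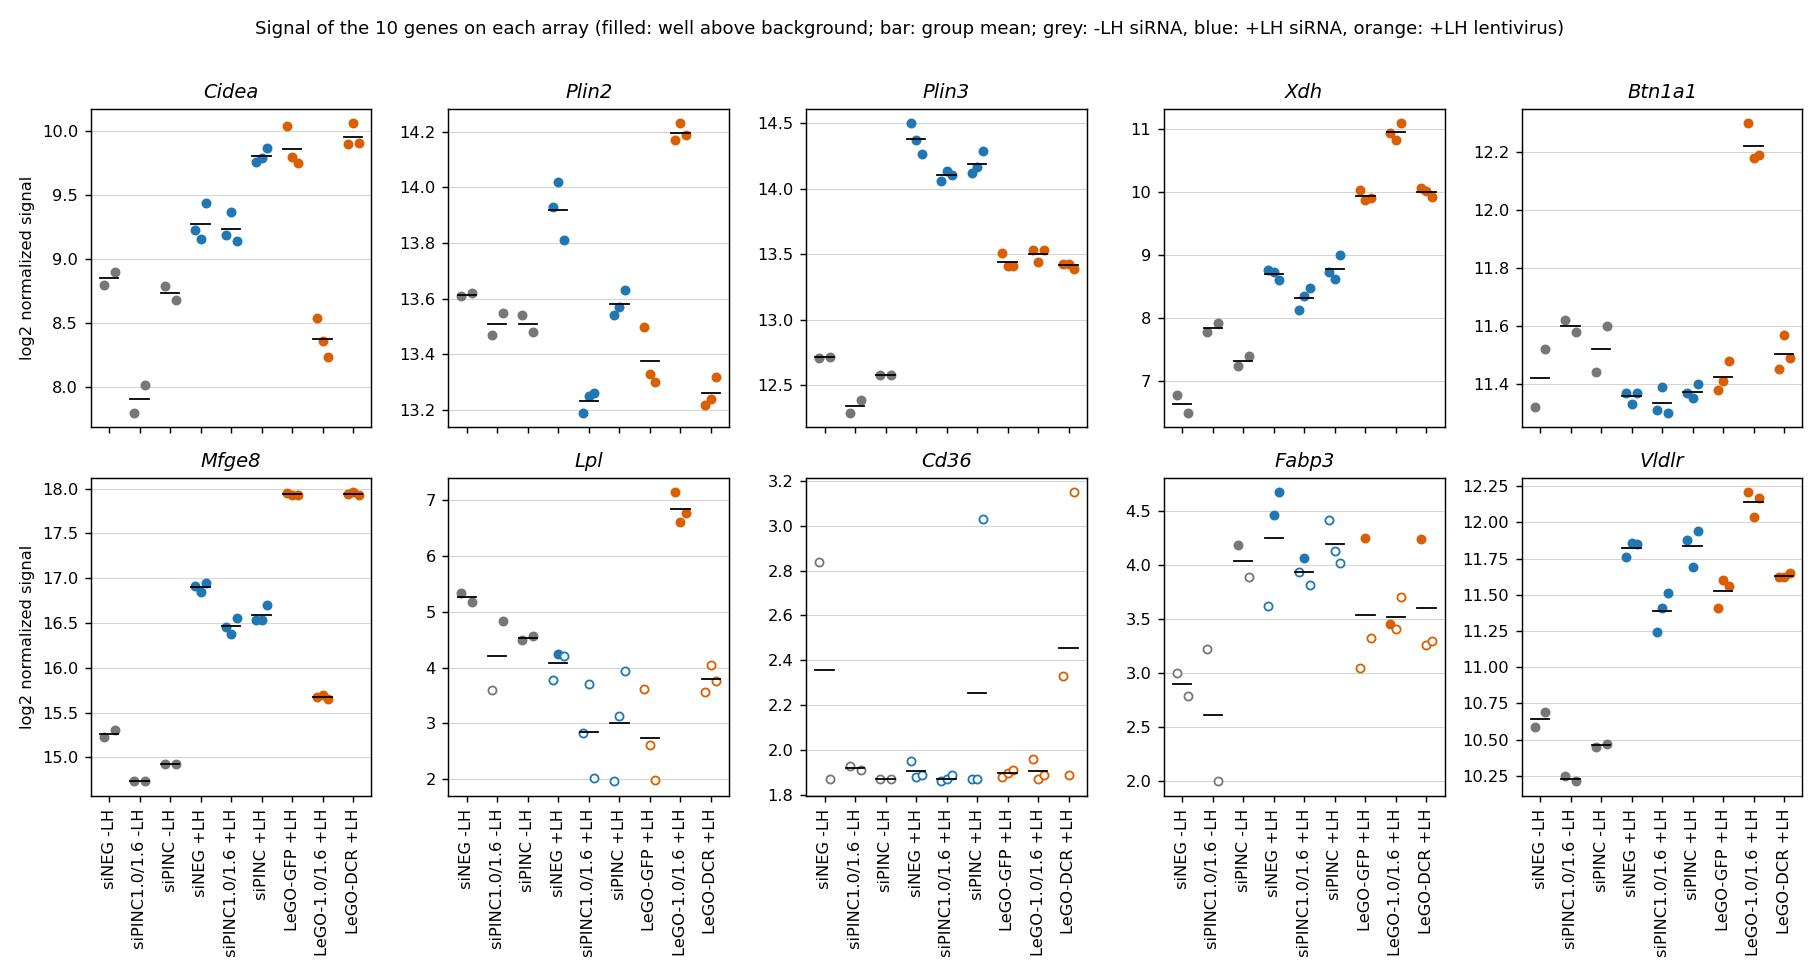
Log2 normalized signal of each of the 10 genes (1 panel a gene, each with its own axis) on the 24 arrays, in 9 groups along the horizontal axis. Filled points were well above background and open points were not, and bars are group means. Cd36 has no filled point, and the LeGO-1.0/1.6 arrays lie apart from both other lentivirus groups for Cidea, Plin2, Xdh, Btn1a1, Mfge8, Lpl and Vldlr.

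Cidea, Plin2, Plin3, Xdh, Btn1a1, Mfge8 and Vldlr, 7 of the 10 genes, were well above background on all 24 arrays. The probe for Lpl reached that mark on 9 arrays, that for Fabp3 on 7 and that for Cd36 on 0. The second Lpl probe reached it on 0 arrays and the second Fabp3 probe on 1. The signal of Cd36 lay between 1.86 and 3.15 on all arrays, so no level and no change could be measured for it. Across the 9 groups the mean of Xdh ranged over 4.31, that of Mfge8 over 3.21, that of Cidea over 2.05 and that of Plin3 over 2.04. Plin2 and Btn1a1 stayed within 0.96 and 0.89. In bulk RNA, fewer cells that express a gene and less of its RNA per cell cannot be told apart.

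The first comparison asked how the genes moved when the control cells were given lactogenic hormones. Droplet coat, globule membrane and lipoprotein receptor genes were higher with hormones, and none of the 10 was lower by the test (for Lpl this depended on the processing, as given below). Among the genes well above background on all arrays, Xdh, Plin3, Mfge8 and Vldlr changed most, by log2 fold changes between 1.18 and 2.06, while Cidea and Plin2 changed less and Btn1a1 did not pass the test. Of the 10 genes, 7 were called (limma, adjusted p under 0.05 over all probes), all higher, against 27.1% of all probes called in either direction. The median change of the 10 was 0.80, beside 0.012 over all probes.

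Xdh read 6.79 and 6.50 in siNEG -LH cells and 8.77, 8.74 and 8.60 in siNEG +LH cells. The groups lay apart, and the rise was 2.06 (SE 0.14, adjusted p = 9.48e-07 by limma). Mfge8 read 15.23 and 15.30 without hormones and 16.91, 16.84 and 16.94 with them, a rise of 1.63 (SE 0.0707). The RNA signals of both genes were therefore higher on every siNEG +LH array than on the siNEG -LH arrays. Btn1a1, the butyrophilin gene, read 11.32 and 11.52 without hormones and 11.37, 11.33 and 11.37 with them, a difference of -0.06 with a 95% interval from -0.22 to 0.09.

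Among the droplet genes, Plin3 went from 12.71 and 12.72 to 14.50, 14.37 and 14.27, a rise of 1.67 (SE 0.076, limma adjusted p = 4.58e-08). Plin2, the perilipin that marks milk lipid droplets, went from 13.61 and 13.62 to 13.93, 14.02 and 13.81, a rise of 0.30 (SE 0.0668, limma adjusted p = 5.31e-03). Cidea went from 8.80 and 8.90 to 9.23, 9.16 and 9.44, a rise of 0.42 (SE 0.103, limma adjusted p = 9.89e-03). The groups did not overlap for any of the 3 genes, though the steps for Plin2 and Cidea were the smallest among the genes called.

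Of the uptake genes, Vldlr rose from 10.59 and 10.69 to 11.76, 11.86 and 11.85, by 1.18 (SE 0.093, limma adjusted p = 2.96e-06). Its second probe rose by 1.62 in the same comparison. Fabp3 was not well above background without hormones (3.00 and 2.79) and was so on 2 of 3 arrays with them (3.62, 4.46 and 4.67), at least 1.13-fold higher with a limma adjusted p of 0.0152. Here and below, "at least" sets the brighter group against the lowest signal well above background on each array of the other group. The probe's own signal is used if higher. That limit is not strict, since Lpl at 4.20 on siNEG +LH replicate 3 was not well above background, where the lowest such signal was 3.77. For Fabp3 the brighter mean also includes replicate 1 (3.62), not well above background, so its 1.13-fold is not a strict bound. Lpl read 5.34 and 5.18 without hormones and 3.77, 4.25 and 4.20 with them. Those groups did not overlap, but the difference of -1.18 did not pass the test (limma adjusted p = 0.199). Lpl was called lower in the deposited table (-0.82, limma adjusted p = 0.0398) and after normexp background correction (-0.40, limma adjusted p = 0.0132), both of which lost the call of Fabp3.

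The 6 -LH arrays were all on 1 slide, which also held 1 siNEG +LH array, and the other +LH siRNA arrays were on another. With the slide as a block in the fit, 5 of the 10 genes were called in siNEG cells, and within the slide that held both states (2 arrays against 1) 4 were. Plin3, Xdh, Mfge8 and Vldlr were called both ways, with changes of 1.78, 2.13, 1.65 and 1.12. Cidea (0.38) and Fabp3 lost the call both ways, though within the slide no array of either state had Fabp3 well above background, and without siNEG -LH replicate 1 Cidea was at 0.37 (limma adjusted p = 0.0773). Plin2 (0.31) lost it within the slide, with a limma adjusted p of 0.0545, and its rise was 0.06 (limma adjusted p = 0.735) with scaling to the 75th percentile, which moved the median of all probes by 0.185. Epithelial markers moved between the same groups, 3 of 6 higher and 2 lower, and their summed linear signal was 187000 to 192000 without hormones and 95100 to 109000 with them. Means without and with hormones were 16.53 and 13.80 for Krt5, the brightest without hormones, and 16.00 and 14.89 for Krt14. Those of Epcam (12.26 and 12.69), Krt8 (13.09 and 13.95) and Krt18 (13.42 and 14.82) rose, so the sum does not describe all 6 markers. The part of these markers in the hormone changes was not tested.

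**Figure D2:**
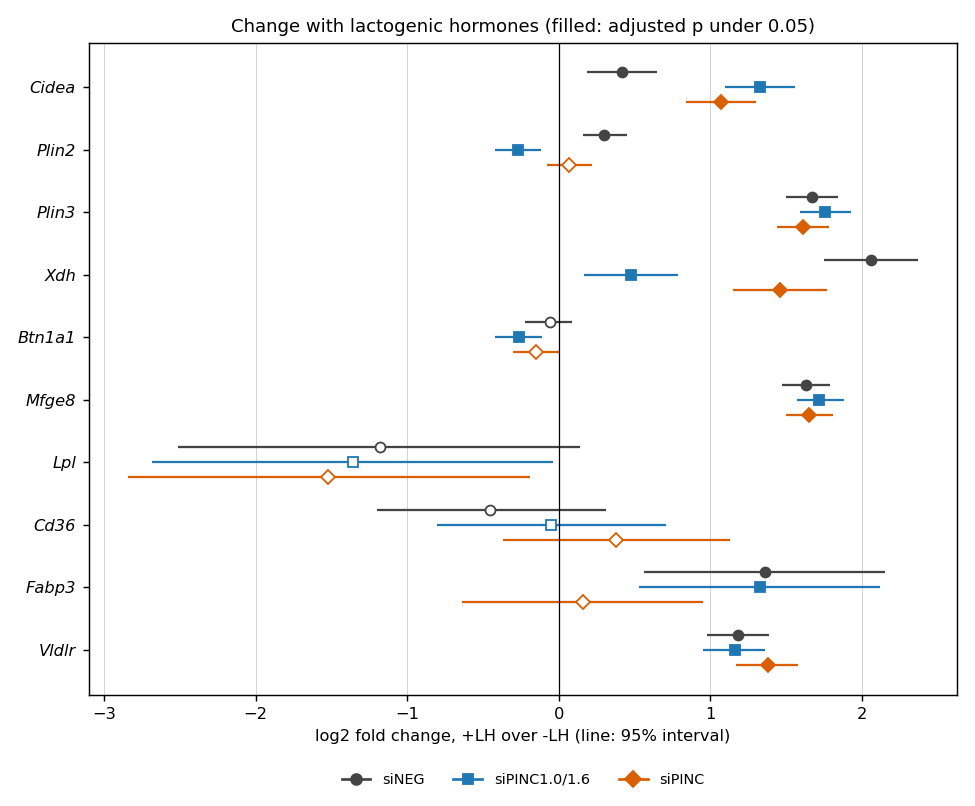
Log2 fold change of each gene with hormones (horizontal axis) in siNEG, siPINC1.0/1.6 and siPINC cells, with 95% intervals from limma as lines and filled symbols for an adjusted p under 0.05. Plin3, Mfge8 and Vldlr lie close together in the 3 siRNA groups, whereas the points of Cidea, Plin2 and Xdh are spread.

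The hormone response was then followed in the knockdown cells, where Plin3, Mfge8 and Vldlr again rose. Plin3 rose by 1.76 in siPINC1.0/1.6 cells and by 1.61 in siPINC cells, Mfge8 by 1.72 and 1.65, and Vldlr by 1.16 and 1.38. In siPINC1.0/1.6 cells 8 of the 10 genes were called, 6 higher and 2 lower, against 29.8% of all probes, with a median of 0.82 (0.013 over all probes). In siPINC cells 5 were called, all higher, against 28.0% of all probes, with a median of 0.73 (0.007 over all probes). Lpl in siPINC cells read 4.49 and 4.56 without hormones and 1.96, 3.13 and 3.94 with them, where no array was well above background, and it did not pass (limma adjusted p = 0.0903). It was called lower there under 5 of the alternatives, namely 75th-percentile scaling, 1 fit of all arrays, bright probes only, normexp and averaged probes (limma adjusted p between 0.0127 and 0.0494), and without siPINC +LH replicate 3 (limma adjusted p = 0.0302).

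Cidea, Plin2 and Xdh behaved otherwise. Cidea rose by 1.33 (SE 0.103) in siPINC1.0/1.6 cells and by 1.07 (SE 0.103) in siPINC cells. Xdh rose by 0.48 (SE 0.14, limma adjusted p = 0.0243) in siPINC1.0/1.6 cells and by 1.46 (SE 0.14) in siPINC cells. Plin2 was lower with hormones in siPINC1.0/1.6 cells, by 0.27 on the log2 scale (difference -0.27, SE 0.0668, limma adjusted p = 9.32e-03), and its difference in siPINC cells was 0.07 with an interval from -0.08 to 0.22. Btn1a1 was lower in siPINC1.0/1.6 cells (difference -0.26, limma adjusted p = 0.0145). Fabp3 also passed the test in those cells (limma adjusted p = 0.0159), but from 0 of 2 to 1 of 3 arrays well above background, which gives no fold. With the slide as a block, 4 of the 10 genes were called in siPINC1.0/1.6 cells (Cidea, Plin3, Mfge8 and Vldlr), and the calls of Plin2, Xdh, Btn1a1 and Fabp3 were lost. In both knockdowns all -LH arrays were on 1 slide and all +LH arrays on another, so hormone state and slide coincide. The slide term came from the siNEG +LH arrays alone, of which 1 was on the slide of the -LH arrays. The differences of Plin2 (-0.26), Xdh (0.58) and Btn1a1 (-0.24) stayed near their size, and that of Fabp3 did not. Leaving out siPINC1.0/1.6 -LH replicate 2 likewise left 4.

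Knockdown of mPINC1.0 and mPINC1.6 without hormones lowered the droplet gene Cidea and the globule gene Mfge8 and raised the globule membrane gene Xdh. Cidea read 7.80 and 8.02 in siPINC1.0/1.6 -LH cells and 8.80 and 8.90 in siNEG -LH cells, a fall of 0.95 on the log2 scale (difference -0.95, SE 0.103, limma adjusted p = 0.0408). Xdh read 7.78 and 7.92 against 6.79 and 6.50, a rise of 1.20 (SE 0.133, limma adjusted p = 0.041). Mfge8 read 14.74 and 14.73 against 15.23 and 15.30, lower with a difference of -0.53 (SE 0.0538, limma adjusted p = 0.0388). These were the 3 genes called of 10, against 2.96% of all probes, and the median of the 10 was -0.39 (-0.006 over all probes).

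The remaining genes did not pass in -LH cells. Plin3 (12.29 and 12.39 with siPINC1.0/1.6) differed from siNEG by -0.37 (limma adjusted p = 0.0661), Vldlr (10.25 and 10.21) by -0.41 (limma adjusted p = 0.0623) and Plin2 (13.47 and 13.55) by -0.10. With 2 arrays a group the 3 calls were narrow: all 3 were lost when any 1 of the 4 arrays was left out, when values were scaled to the 75th percentile, and with the replicate number as a block (adjusted p between 0.121 and 0.123 by limma). The differences themselves stayed near their size in those settings, at -0.84 to -1.05 for Cidea, 1.06 to 1.35 for Xdh and -0.48 to -0.56 for Mfge8.

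With the siRNAs against all splice forms, 0 of the 10 genes were called in -LH cells by limma, against 0% of all probes, while 3 of the 10 and 5391 probes had an unadjusted p under 0.05. Xdh read 7.25 and 7.40, which lay above siNEG on both arrays, with a difference of 0.68 (limma adjusted p = 0.295). Mfge8 read 14.93 on both arrays, with a difference of -0.33 (limma adjusted p = 0.251). Cidea (8.79 and 8.68) differed from siNEG by -0.12, with an interval from -0.40 to 0.17. A fit of all 24 arrays together called 2 of the 10, Xdh and Mfge8.

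In hormone-treated cells the arrays labelled siPINC1.0/1.6 had lower Plin2 and Mfge8. Plin2 read 13.19, 13.25 and 13.26 against 13.93, 14.02 and 13.81 in siNEG +LH cells, a difference of -0.68 (SE 0.0637, limma adjusted p = 0.00236). Mfge8 read 16.45, 16.38 and 16.55 against 16.91, 16.84 and 16.94, a difference of -0.44 (SE 0.0709, limma adjusted p = 0.0211). These were 2 of the 10 genes, against 3.84% of all probes, with a median of -0.35 (-0.014 over all probes). The groups did not overlap for either gene, but the call for Mfge8 was lost with the slide as a block or within 1 slide (difference -0.43, limma adjusted p = 0.074), which left 1 gene of 10. It was also lost on leaving out any 1 of the 6 arrays other than siPINC1.0/1.6 +LH replicate 3 (limma adjusted p between 0.0594 and 0.0794).

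Of the genes that had moved most in -LH cells, Cidea was close to the control here and Xdh lay below it. Cidea read 9.19, 9.37 and 9.14 against 9.23, 9.16 and 9.44, a difference of -0.04 with an interval from -0.26 to 0.18. Xdh read 8.13, 8.36 and 8.48 against 8.77, 8.74 and 8.60, a difference of -0.38 with an interval from -0.68 to -0.08 that did not pass after adjustment (limma adjusted p = 0.206), although no array overlapped. Vldlr read 11.24, 11.41 and 11.51 against 11.76, 11.86 and 11.85, below the control on all 3 arrays, with a difference of -0.43 (limma adjusted p = 0.0575).

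**Figure D3:**
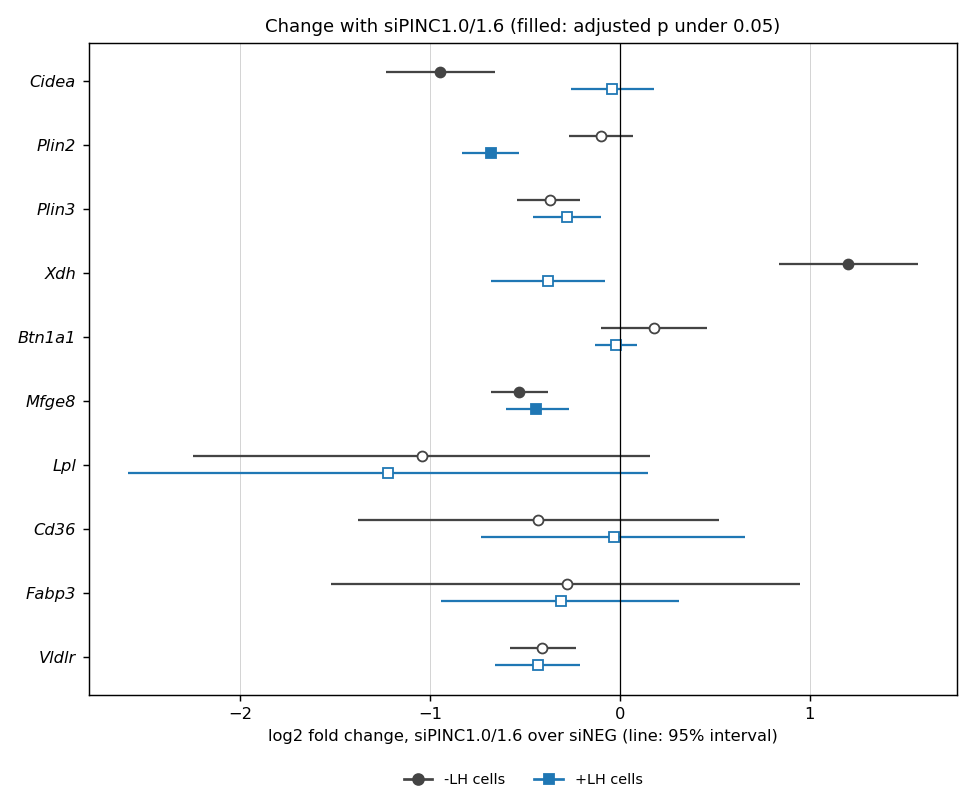
Log2 fold change of each gene between siPINC1.0/1.6 and siNEG cells (horizontal axis), without hormones (circles) and with them (squares), with 95% intervals from limma as lines and filled symbols for an adjusted p under 0.05. The 2 intervals lie apart for Cidea, Plin2 and Xdh, and Mfge8 is filled in both states.

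Whether the effect of siPINC1.0/1.6 depended on the hormone state was tested by an interaction term, which called 3 of the 10 genes against 3.19% of all probes. For Cidea the effect was higher by 0.91 with hormones than without (SE 0.146, limma adjusted p = 0.00716). For Xdh it was lower by 1.58 on the log2 scale (interaction -1.58, SE 0.198, limma adjusted p = 0.0017), and for Plin2 by 0.58 (interaction -0.58, SE 0.0944, limma adjusted p = 0.00779). All 3 stayed called with the slide as a block and whichever of the 10 arrays concerned was left out. For Mfge8 the interaction was 0.09, with an interval from -0.13 to 0.32. The median of the 10 was -0.03, beside -0.009 over all probes.

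With siPINC in +LH cells, 0 of the 10 genes were called by limma, against 0.681% of all probes. An unadjusted p under 0.05 was found for 4 of the 10 and for 5620 of the 55681 probes. Cidea read 9.76, 9.79 and 9.87, above all 3 siNEG +LH arrays, with a difference of 0.53 (SE 0.0923, limma adjusted p = 0.0728). Plin2 read 13.54, 13.57 and 13.63, below all 3, with a difference of -0.34 (SE 0.0637, limma adjusted p = 0.0958). Both were called when only bright probes were tested, after normexp background correction and in 1 fit of all arrays. The interaction for siPINC called 0 of the 10 genes, against 0.503% of all probes. An unadjusted p under 0.05 was found for 4030 of the 55681 probes and for 4 of the 10 genes, among them Cidea at 0.65 (limma adjusted p = 0.125).

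Most of the set differed between hormone-treated LeGO-1.0/1.6 and LeGO-GFP cells, and not in 1 direction. Mfge8 and Cidea fell, while Xdh, Btn1a1, Plin2 and Lpl rose, as did the brighter of the 2 Vldlr probes but not the dimmer. Against LeGO-GFP, 7 of the 10 genes were called, 5 higher and 2 lower, against 30.3% of all probes, with a median of 0.34 (-0.009 over all probes). The same numbers, 5 higher and 2 lower against 29.7% of all probes, were found against LeGO-DCR. Between LeGO-DCR and LeGO-GFP 0 of the 10 genes were called by limma, against 0.0736% of all probes, and 1 of the 10 and 2519 of the 55681 probes had an unadjusted p under 0.05. The LeGO-1.0/1.6 group is shared by both comparisons with 7 calls, and LeGO-GFP is shared by the first of them and the comparison with LeGO-DCR.

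Mfge8 read 17.95, 17.93 and 17.93 in LeGO-GFP cells and 15.67, 15.70 and 15.65 in LeGO-1.0/1.6 cells, a 4.81-fold fall (log2 difference -2.26, SE 0.0406, limma adjusted p = 9.66e-08). In LeGO-DCR cells it read 17.94, 17.96 and 17.93, within 0.10 of LeGO-GFP by the upper limit of the interval. Cidea read 10.04, 9.80 and 9.75 in LeGO-GFP cells, 8.54, 8.36 and 8.24 in LeGO-1.0/1.6 cells and 9.90, 10.06 and 9.91 in LeGO-DCR cells. Its fall was 2.79-fold (log2 difference -1.48, SE 0.108, limma adjusted p = 3.6e-05), and the difference between LeGO-DCR and LeGO-GFP was 0.09 with an interval from -0.16 to 0.35. For both genes every LeGO-1.0/1.6 array lay below every other lentivirus array.

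The other globule membrane genes went the other way. Xdh read 10.04, 9.88 and 9.90 in LeGO-GFP cells and 10.94, 10.83 and 11.09 in LeGO-1.0/1.6 cells, a 2.02-fold rise (log2 1.01, SE 0.084, limma adjusted p = 6.92e-05). Btn1a1 read 11.38, 11.41 and 11.48 against 12.30, 12.18 and 12.19, a 1.74-fold rise (log2 0.80, SE 0.0597, limma adjusted p = 3.99e-05). Btn1a1 was not called higher in any hormone or knockdown comparison, and LeGO-1.0/1.6 was the group with its highest mean.

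Among the droplet coat genes, Plin2 rose and Plin3 did not pass. Plin2 read 13.50, 13.33 and 13.30 in LeGO-GFP cells, 14.17, 14.23 and 14.19 in LeGO-1.0/1.6 cells and 13.22, 13.24 and 13.32 in LeGO-DCR cells, a rise of 1.76-fold over LeGO-GFP (log2 0.82, SE 0.0658, limma adjusted p = 5.89e-05). Plin3 read 13.51, 13.41 and 13.41 against 13.53, 13.44 and 13.53, a difference of 0.06 with an interval from -0.07 to 0.18. Plin2 and Cidea, which both encode lipid droplet proteins, thus changed in opposite directions on all 3 arrays. Both were named by the study in a list that it chose on these arrays for opposite changes with knockdown and overexpression, so their presence there is not independent evidence of direction. The study states that knockdown raised Cidea and overexpression lowered it, and its list took a change in either knockdown group. Here Cidea differed from siNEG by -0.95 (-LH) and -0.04 (+LH) with siPINC1.0/1.6. With siPINC it differed by -0.12 (-LH) and 0.53 (+LH, limma adjusted p = 0.0728), so only the last lay in the stated direction.

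Lpl cleared background on 0 of 3 LeGO-GFP arrays (3.62, 2.61 and 1.99), on 0 of 3 LeGO-DCR arrays (3.57, 4.05 and 3.75) and on all 3 LeGO-1.0/1.6 arrays (7.14, 6.60 and 6.76). It was at least 6.97-fold higher than in LeGO-GFP cells (limma adjusted p = 1.45e-04) and at least 7.81-fold higher than in LeGO-DCR cells (limma adjusted p = 7.06e-04). The second Lpl probe was not well above background in any group (2.45, 3.74 and 3.96 in LeGO-1.0/1.6 cells) and gave no measurement of it. Cd36 and Fabp3 were not called, and in each lentivirus group 1 array of 3 had Fabp3 well above background.

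**Figure D4:**
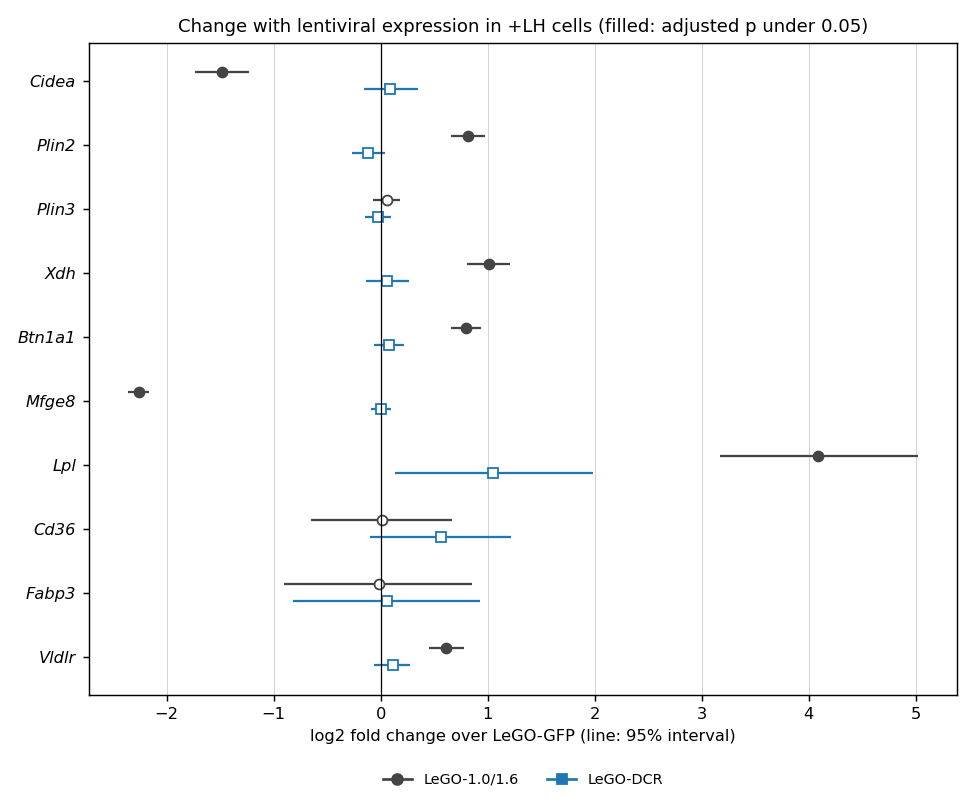
Log2 fold change of each gene over LeGO-GFP (horizontal axis) in LeGO-1.0/1.6 (circles) and LeGO-DCR (squares) cells, with 95% intervals from limma as lines and filled symbols for an adjusted p under 0.05. Mfge8 and Cidea lie left of 0 and Lpl, Xdh, Plin2, Btn1a1 and Vldlr right of it in LeGO-1.0/1.6 cells. No LeGO-DCR symbol is filled, and the Lpl point of LeGO-1.0/1.6 is a fitted value set against a group not well above background.

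The probes for Vldlr disagreed under overexpression. The brighter one read 11.41, 11.60 and 11.56 in LeGO-GFP cells and 12.21, 12.04 and 12.17 in LeGO-1.0/1.6 cells, a rise of 0.61 (SE 0.0697, limma adjusted p = 3.58e-04). The dimmer one read 7.87, 7.91 and 8.03 against 7.72, 7.60 and 7.86, a difference of -0.21 (limma adjusted p = 0.142), and it was lower against LeGO-DCR (difference -0.29, limma adjusted p = 0.0484). Averaged, the 2 probes gave 0.20 against LeGO-GFP (limma adjusted p = 0.0922), so the rise of Vldlr rests on 1 probe. Both probes rose with hormones in all 3 siRNA groups, the dimmer one by 1.62, 1.32 and 1.58.

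**Figure D5:**
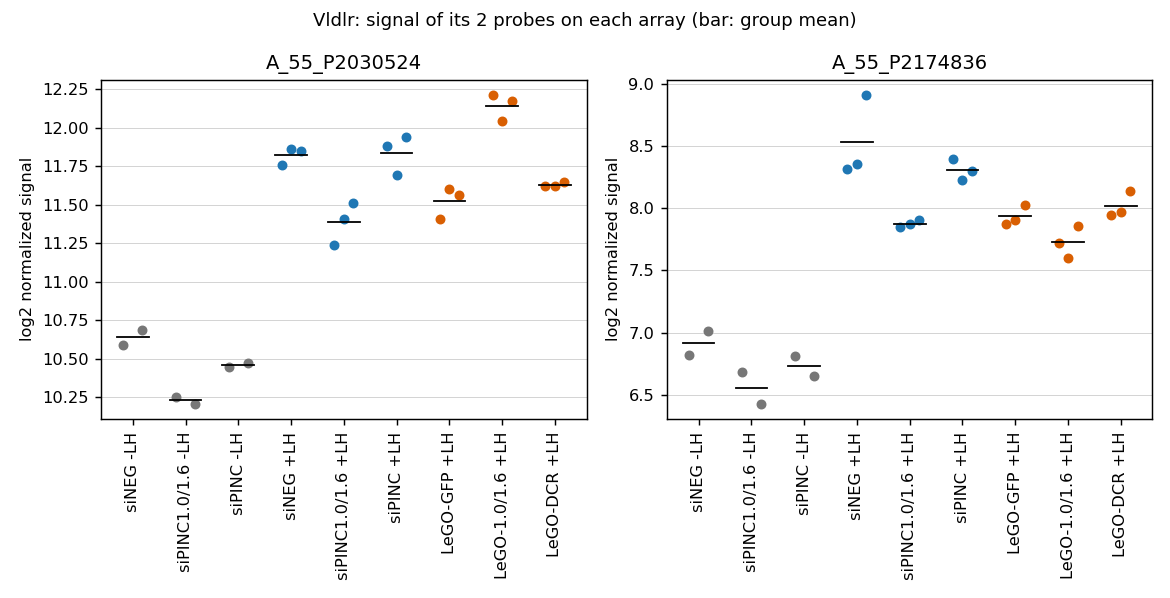
Log2 normalized signal of the 2 Vldlr probes on each array, in 9 groups along the horizontal axis, with bars for group means. The LeGO-1.0/1.6 points lie above those of LeGO-GFP in the left panel (12.04 to 12.21 against 11.41 to 11.60) and not in the right panel (7.60 to 7.86 against 7.87 to 8.03).

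Of the 9 lentivirus arrays, 8 were on 1 slide and LeGO-GFP replicate 1 was on another. The 7 calls against LeGO-GFP were kept within the first slide, with the slide as a block, and without LeGO-1.0/1.6 replicate 1, the array that stood apart. Markers of cell types also differed here. Of 6 epithelial markers, 5 were lower in LeGO-1.0/1.6 cells, with Krt5 at -2.76 and Epcam at -1.06. The summed linear signal of the 6 ranged from 46600 to 49500, against 100000 to 104000 in both LeGO-GFP and LeGO-DCR cells. Krt14 and Krt5 were the brightest of the 6 with LeGO-GFP (means 15.34 and 14.52) and read 13.57 and 11.76 with LeGO-1.0/1.6. Krt8 (13.31 with LeGO-GFP, then 13.04) and Cdh1 (12.22, then 11.88) fell less. Krt18 (13.91, then 14.06) was not lower, so the sum does not describe all 6 markers. Of 7 adipocyte markers, 2 were called higher. These were Fabp4, at 13.24 to 13.41 against 9.61 to 9.69, and Adipoq, which cleared background on none of the arrays. The summed adipocyte signal was 9770 to 11000 against 836 to 889 in LeGO-GFP cells, most of it from Fabp4. Plin1, Cidec, Cfd, Lep and Retn were each well above background on 1 of the 3 LeGO-1.0/1.6 arrays. Cidec and Lep were so on 1 LeGO-GFP array, and Lep on 2 LeGO-DCR arrays. Group means in LeGO-1.0/1.6 against LeGO-GFP cells were 3.26 and 3.26 for Plin1, 3.44 and 3.74 for Cidec, and 3.29 and 3.94 for Lep. For Cfd they were 3.42 and 3.2, and for Retn 3.92 and 2.92. The lowest signal well above background was 2.29 on LeGO-1.0/1.6 replicate 1, against 3.68 and 3.91 on the other arrays of that group. Of 5 endothelial markers 0 were called, and of 4 macrophage markers 1 was lower. The part of these cell type markers in the changes of the lipid genes was not tested.

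Other genes of the same pathways were counted from lists in the comparison of LeGO-1.0/1.6 with LeGO-GFP. Over all probes, 8068 were called higher there and 8789 lower (30.3% in either direction). Of 13 genes of triglyceride assembly 7 were higher and 2 lower, of 14 droplet coat and lipolysis genes 3 were higher and 3 lower, and of 17 genes for uptake, binding and activation of fatty acids 8 were higher and 7 lower. Of 15 genes of fatty acid synthesis and desaturation 7 were higher and 5 lower, of 17 regulators 3 were higher and 10 lower, and of 8 milk proteins 0 were higher and 5 lower. The medians were 0.35, -0.01, 0.35, 0.05, -0.28 and -1.28 in that order. By fitted change the largest were a fall of Elf5 (-5.47), a transcription factor of alveolar differentiation, a fall of lactotransferrin Ltf (-4.31) and of beta-casein Csn2 (at least 7.24-fold), and rises of the fatty acid binding protein Fabp4 (3.66), of Dgat2 (3.48), which completes triglycerides, and of Mogat2, which is known here only as a bound (at least 2.20-fold) because it was not well above background in LeGO-GFP cells. Among genes measured in both groups the fall of Mgll (-2.78) came next.

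In the hormone comparison of siNEG cells the same lists gave 3 higher and 2 lower for triglyceride assembly, 3 and 1 for droplet coat and lipolysis, 6 and 8 for uptake, 3 and 7 for synthesis and desaturation, 7 and 2 for the regulators and 3 and 0 for milk proteins. The medians were 0, 0.14, -0.17, -0.29, 0.08 and 1.36. Over all probes, 7535 were called higher in that comparison and 7580 lower (27.1% in either direction). By fitted change the largest were rises of Csn2 (at least 117-fold), of the monoglyceride lipase Mgll (4.82), of Csn1s1 (at least 5.72-fold), of Ltf (1.98) and of the lipogenic factor Thrsp (at least 3.67-fold), and a fall of the phosphatidate phosphatase Lpin2 (-1.95). More genes of fatty acid synthesis were thus called lower than higher in the comparison in which 7 of the 10 droplet and uptake genes were higher. The lists were not tested as sets.

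With siPINC1.0/1.6 in -LH cells, 5 of 17 uptake genes, 1 of 13 triglyceride assembly genes and 3 of 17 regulators were lower, none was higher, and 0 of the 14, 15 and 8 genes of the other lists were called, where 844 probes in all were higher and 806 lower (2.96%). Leaving out single arrays, which took away the 3 calls among the droplet and uptake genes in this comparison of 2 arrays with 2, was not run for these lists. The largest were the fatty acid transporters Slc27a6 (at least 3.58-fold lower) and Slc27a3 (-0.92), the receptor Lrp1 (-0.95), Lpin1 (-0.90), the prolactin-activated Stat5a (-0.81) and the lipogenic regulator Srebf1 (-0.80). In +LH cells the largest were Csn2 (-1.20), Ltf (2.14-fold higher), the lipoprotein lipase inhibitor Angptl4 (0.99), Slc27a6 (-0.94), Mgll (-0.70) and Srebf1 (-0.53). With siPINC in +LH cells they were Ltf (1.27), Elf5 (0.43), Dgat2 (0.41) and Srebf1 (-0.39). With siPINC in -LH cells and in LeGO-DCR cells 0 genes of these lists were called by limma.

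For Xdh, Mfge8 and Cidea, the well measured genes with the widest range, the genes most like them over the 9 group means were sought among 7879 genes. The closest to Xdh were Cldn4 (Pearson r = 0.9894), Enah and Abcc1, and the closest to Mfge8 were Eif2ak3 (0.9962), Spint1 and Aifm3. The closest to Cidea were Vwa1 (0.9801), Mmp15 and Hes6. None of these is among the other lipid genes counted above. The 9 means share arrays, normalization and control groups, and the values are descriptions.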

How the data were processed

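RNA of HC11 cultures was labelled with Cy3 and hybridised to 24 Agilent 1-colour arrays. The authors deposited 1 scanner file an array, whose processed signal is an intensity already corrected for background and spatial trend within the array. They also deposited a table of log2 values, quantile normalized per the study's methods, with column medians of 5.23 to 5.248. The base of its logarithm was inferred from its fit to the scanner values.

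From the 59305 spots without controls, outlier spots (146 to 644 an array) were left out, spots of a probe were averaged, and log2 processed signals were quantile normalized over the 24 arrays (55681 probes, dim ones kept, none saturated). Probes were named through RefSeq accessions; 26582 were named and 29099 were not. Groups were compared with limma 3.58.1 in R 4.3.3, in separate fits of the siRNA arrays in each hormone state (9 with and 6 without hormones) and of the 9 lentivirus arrays. Hormone changes and interactions came from 1 fit of the 15 siRNA arrays. Benjamini-Hochberg adjustment ran over all probes, with calls at 0.05. Where no array of a group was well above background, a fold is given as an approximate lower bound. It is the mean of the brighter group over the higher of the array's lowest signal well above background and the probe's own. Precision is limited by the number of arrays, 2 or 3 a group, and p-values measure the spread between these cultures.

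The alternatives were 75th-percentile scaling, normexp with an offset of 50, the deposited table, bright probes only, averaged probes, 1 fit of all arrays, the methods' t-test, slide and replicate blocks, single slides and leaving out each array. The fits were tested on simulated data. Same-numbered arrays of compared groups had low correlations of their deviations from the group means (-0.196 to 0.165). With 2 or 3 arrays a group, this cannot settle whether replicate numbers pair cultures. The members, the pathway and marker lists and the tests were chosen with earlier results of these data known. Outside the 10 members, genes were named where they had the largest changes among those called, at most 6 a comparison, and for likeness the 3 with the highest r (not reported here for Plin3). Other marker genes named come from the marker lists, and Mgll with LeGO-1.0/1.6 was chosen after its values were seen. No per-sample column was set aside.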

Additional observations from a re-analysis of the deposited data

Results flagged for a closer look

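For 3 of the 10 genes the effect of siPINC1.0/1.6 differed between the hormone states by a test of the difference itself (limma interaction term, +LH effect minus -LH effect). The difference was 0.91 for Cidea (95% interval 0.58 to 1.23), with effects of -0.95 without hormones and -0.04 with them. It was -1.58 for Xdh (interval -2.02 to -1.14), with effects of 1.20 and -0.38. For Plin2 it was -0.58 (interval -0.79 to -0.37), with effects of -0.10 and -0.68. The mPINC probe was lower with siPINC1.0/1.6 in -LH cells (difference -1.11, limma adjusted p = 0.0366) and not in +LH cells (difference 0.19), and its part in these differences was not tested.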

How the results depend on the processing

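No call among the 10 genes changed direction under any alternative. The 7 calls of LeGO-1.0/1.6 against LeGO-GFP and LeGO-DCR, the 3 calls of the siPINC1.0/1.6 interaction and the 5 of hormones in siPINC cells stayed within 1.5 times these counts under all alternatives run. Averaged probes lost the call of Vldlr with LeGO-1.0/1.6, which left 6 in both comparisons. With hormones in siNEG cells (7), slide 1 alone and the methods' t-test after Benjamini-Hochberg adjustment gave 4 each. With hormones in siPINC1.0/1.6 cells (8) the slide as a block gave 4. For siPINC1.0/1.6 in -LH cells (3), 75th-percentile scaling, the deposited table, the methods' t-test and the replicate block gave 0, whereas 1 fit of all arrays, bright probes only and normexp gave 5. For siPINC1.0/1.6 in +LH cells (2), 75th-percentile scaling, slide 2 alone, the slide block and the t-test gave 1, and 1 fit and bright probes gave 4. For siPINC in +LH cells (0), 1 fit gave 3 and bright probes and normexp gave 2, and for siPINC in -LH cells (0), 1 fit gave 2. Apart from the settings that test fewer probes or arrays, the cause was not tested.

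Leaving out 1 array gave 5 to 7 calls with hormones in siNEG cells, 4 to 8 in siPINC1.0/1.6 cells and 5 to 6 in siPINC cells. It gave 0 to 0 for both knockdowns in -LH cells, 1 to 2 for siPINC1.0/1.6 and 0 to 0 for siPINC in +LH cells, 7 to 7 for LeGO-1.0/1.6 against LeGO-GFP, 7 to 8 against LeGO-DCR and 0 to 0 for LeGO-DCR. Both interactions kept their counts, 3 and 0. Of 730 values of single genes with 1 array left out, 699 kept their side of the threshold, 29 lost the call and 2 gained it.

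Whether replicate numbers pair the arrays could not be settled. Beside the -LH calls, the replicate block lost Xdh with hormones in siPINC1.0/1.6 cells (0.43, limma adjusted p = 0.0653) and no other. 75th-percentile scaling moved the median of all probes by 0.185 and 0.231 with hormones in siNEG and siPINC cells and by -0.101 in the siPINC1.0/1.6 interaction. The t-test was not run for the interactions, nor the slide block for the -LH comparisons, whose arrays share 1 slide. Lpl, Cd36 and Fabp3 lay near or below background, which limits what their probes can show.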

Other observations

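Among the lipid genes counted in the lists, Pparg, a regulator of adipogenesis, rose by 1.48 in LeGO-1.0/1.6 cells against LeGO-GFP (limma adjusted p = 3.34e-04). Hilpda and Abhd5, which act on droplet lipolysis, rose by 1.27 and 0.85, and the desaturase Scd1 by 1.26, while Mgll changed by -2.78 and Srebf1 by -1.75. These genes were chosen after their values were seen. The adipocyte droplet protein gene Plin1 read 8.45 on 1 siNEG +LH array and at most 4.07 on the other 23 arrays, where it was well above background on 1.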
